A study of Mus musculus with 21 samples.

Results

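The histone cluster genes are the mouse genes whose symbols begin with Hist1h to Hist4h, which encode the linker histone H1 and the core histones H2A, H2B, H3 and H4. The symbol pattern picked 70 genes over the tables of 2 RNA-seq experiments: 67 of 22899 genes in the coculture table and 69 of 27968 in the sorted-cell table, with 66 in both. By type, 6 encoded H1, 20 H2A, 19 H2B, 12 H3 and 13 H4. By position on GRCm38, 56 were Hist1 genes on chromosome 13, 10 were Hist2 genes on chromosome 3, 3 were Hist3 genes on chromosome 11 and 1 was the Hist4 gene on chromosome 6. Of the 67 in the coculture table, Hist1h2bn and Hist2h3c1 were left blank, so 65 had values.

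The study drove mouse pluripotent stem cells (129/ola) towards blood in a 3D self-assembling peptide gel and then cultured the colonies for 5 days on OP9, a mouse bone marrow stromal line treated with mitomycin C, or on 0.1% gelatin alone. Total cells of both cultures (3D+OP9 and 3D+0.1%gel) were sequenced in 3 libraries each. The sorted-cell table held 15 libraries, 3 per group: SSEA-1+ mouse embryonic stem cells (mESC, 129/ola), day 5 LSKCD201+ and LSKCD201- cells from the OP9 culture (D5-LSKCD201+ and D5-LSKCD201-, 129/ola), and LSKCD201+ cells from the fetal liver (FL) and the bone marrow (BM) of C57BL/6 mice. LSK cells lack lineage markers and carry Sca-1 and c-kit, and CD201 marks blood stem cells. The fetal livers came from midgestation embryos and the marrow from adult mice. The labels give 129/ola for all stem cells and their derivatives, while the study's methods also name stem cells from C57BL/6 mice. By the labels, strain and cell source change together between the D5 or mESC groups and FL or BM, so they cannot be told apart. The pluripotency genes fixed as markers summed to 1822 to 1888 FPKM in mESC, 928.5 to 951 in D5-LSKCD201- and 9.61 to 10.9 in D5-LSKCD201+. The blood genes Ptprc, Spi1, Runx1, Myb, Gfi1b and Cd48 summed to 427 to 579 FPKM in FL and BM but to 16.05 to 18.5 in both D5 groups, so the D5 cells were low in blood markers. The stromal markers summed to 35.8 to 94.3 FPKM in the D5 groups and to at most 14.7 in mESC, FL and BM, and their part in the values was not tested. In the OP9 cultures they summed to 58.2 to 69.4 FPKM, against 25.7 to 37.0 on gelatin, and the erythroid markers to 218 to 796.5 against 1.61 to 19.1. The LSK and CD201 markers summed to 61.7 to 64.1 FPKM with OP9 and 9.05 to 13.7 on gelatin, the blood genes to 13.8 to 20.0 and 5.93 to 6.65, and the pluripotency genes to 742 to 1082 and 1100 to 1230. None of these sums overlapped between the cultures, and their part in the member values was not tested. In such bulk samples, fewer cells of a type and less RNA per cell cannot be told apart. The study calls the sorted libraries biological replicates, and a figure legend with their FPKM values names at least 3 independent experiments. The labels do not tie each library to a separate culture or animal. The p-values measure the spread between these libraries, and how much of it is technical was not tested. Each library's FPKM summed to 483300 to 508300 in the coculture table and to 508600 to 620300 in the sorted-cell table, and the read depth behind them is unknown.

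Histone genes come in clusters because a cell needs large amounts of all types at once when it copies its DNA. Most of their mRNAs are made in S phase, have no introns and end in a short stem-loop instead of a poly(A) tail. The stem-loop binding protein SLBP and the U7 snRNP, with its subunits Lsm10 and Lsm11, shape that end. Some members, among them Hist1h1c, Hist1h2bc and Hist2h2be, are known to give polyadenylated mRNA as well, from a site further downstream. The libraries were made with an mRNA kit that selects poly(A) tails. The values therefore describe the histone RNA that this kit retained, and how much of the RNA without a tail it kept was not tested. Members whose annotated transcript ends within 100 bases of the stem-loop described next summed to 325 to 1151 FPKM over the 5 sorted groups.

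The stem-loop was read from the longest GENCODE M21 transcript of each member (GRCm38), as GGNNNTNNNNANNNCC with 6 pairing bases on each side of a loop of 4. It was found in 45 of 70 members (64.3%), against 1.10% of all 55450 annotated genes. The forms are shown because they are the mark that tells these mRNAs apart; the paired bases are in capitals. The first was carried by 25 members of the H1, H2A, H2B and H3 types. The second was carried by 7 members, all H4, and the third by 6 members, among them Hist1h2bb, Hist1h2bk and Hist1h3c.
Stem-loop of Hist1h1c and 24 others: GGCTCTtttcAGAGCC
Stem-loop of Hist1h4d and 6 others: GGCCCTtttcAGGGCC
Stem-loop of Hist1h3c and 5 others: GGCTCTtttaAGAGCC
Annotated transcripts differed in what follows the loop. They ended within 100 bases of it in 22 members, such as Hist1h2ap (3 bases) and Hist2h2aa1 (35 bases). They ran on for more than 100 bases in 23 members, such as Hist1h1c (840 bases), Hist1h4d (770 bases), Hist3h2a (1643 bases) and Hist1h2bg (155 bases). In the other 25 no such loop was in the annotated transcript, such as that of Hist1h2ah, which is 405 bases in all. That of Hist1h2bc, of 1156 bases, and that of Hist2h2be, of 2620 bases, also held none.

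Promoters of 62 members were matched in the RefSeq table (GRCm38.p6), and 250 bases before the start were searched on both strands for the letters ATTTGCAT (the octamer), CCAAT and TATAAA. The CCAAT letters were in all 6 H1, 18 H2A and 16 H2B promoters, in 8 of 10 of H3 and in 3 of 12 of H4, against 34.5% of all 27025 promoters. The octamer was in 7 of 18 H2A and 7 of 16 H2B promoters and in none of H1, H3 or H4, against 1.61% of all promoters. The TATAAA letters were in 29 of 62 members (46.8%), against 13% of all. The sequences of Hist1h1c, of Hist1h2ac (which shares its upstream region with Hist1h2bc, a gene that runs the other way) and of Hist1h2ap, the member with the highest mean in both tables, are given, since the results below turn on these genes. Capitals mark the matches to the 3 motifs.
Hist1h1c, chr13:23738557-23738806, plus strand: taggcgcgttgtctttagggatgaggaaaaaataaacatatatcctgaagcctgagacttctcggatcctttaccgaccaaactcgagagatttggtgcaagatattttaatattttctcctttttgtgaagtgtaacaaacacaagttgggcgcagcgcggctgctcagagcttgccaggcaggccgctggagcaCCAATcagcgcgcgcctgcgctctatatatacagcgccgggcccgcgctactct
Hist1h2ac, chr13:23683960-23684209, minus strand: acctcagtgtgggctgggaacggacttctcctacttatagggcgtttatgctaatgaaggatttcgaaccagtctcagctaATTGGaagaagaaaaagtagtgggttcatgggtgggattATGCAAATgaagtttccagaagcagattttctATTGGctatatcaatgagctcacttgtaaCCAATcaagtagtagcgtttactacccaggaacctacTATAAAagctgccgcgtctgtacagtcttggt
Hist1h2ap, chr13:21833476-21833725, minus strand: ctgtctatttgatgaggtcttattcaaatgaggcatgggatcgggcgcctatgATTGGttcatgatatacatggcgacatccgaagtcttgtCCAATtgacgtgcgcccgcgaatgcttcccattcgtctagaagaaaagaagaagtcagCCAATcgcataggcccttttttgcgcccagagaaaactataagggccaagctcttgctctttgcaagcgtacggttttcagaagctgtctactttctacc
The Hist1h1c window held 1 CCAAT and none of the others, the Hist1h2ac window held 3 CCAAT, 1 octamer and 1 TATAAA, and the Hist1h2ap window held 3 CCAAT alone.

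Expression was given as FPKM, fragments scaled by transcript length and library size. Levels of different members are set side by side only as RNA that the kit retained, and those of copies that share sequence are uncertain. Members were detected at very uneven levels. In mESC, 52 of 69 members reached a mean of 0.5 FPKM, 12 reached 10 and 3 reached 100. In D5-LSKCD201- these numbers were 55, 14 and 3, in D5-LSKCD201+ 48, 15 and 3, in FL 63, 20 and 5, and in BM 50, 12 and 1. In 3D+OP9, 42 of 65 members reached 0.5 FPKM and 3 reached 10, and in 3D+0.1%gel 46 and 3 did. The median member stood at 0.966 FPKM in mESC, 1.03 in D5-LSKCD201+, 1.45 in D5-LSKCD201-, 2.95 in FL and 1.34 in BM. The testis members were at or near 0: Hist1h1t and Hist1h2ba did not exceed 0.269 FPKM in any of the 15 sorted-cell libraries, or 0.34 in any of the 6 coculture libraries. Hist1h2aa, listed in the coculture table alone, was at 0 in 5 libraries and at 0.12 in the sixth.

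H2A carried most of the histone signal. Summed over the 19 H2A members of the sorted-cell table, the level was 1325 ± 45.1 FPKM in mESC, 1007 ± 143 in D5-LSKCD201-, 899 ± 62.4 in D5-LSKCD201+, 1604 ± 741 in FL and 437 ± 146 in BM (mean ± SD, n = 3). The other 50 members together gave 103 ± 12.5, 137 ± 12.7, 139 ± 10.6, 514 ± 120 and 214 ± 30.3 FPKM in the same order. The 3 BM libraries were the lowest in H2A, at 269, 530 and 510 FPKM, and the FL libraries ran from 760 to 2146, on both sides of every mESC and D5 library. The rest of the family was lowest in mESC, where H2A was above both D5 groups. The sums are given as a description, without a test.

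By mean sum, H1 and H2B were lowest in mESC and highest in FL. For H1 the mESC libraries, at 29.18 to 34.55 FPKM, overlapped those of D5-LSKCD201-, at 31.7 to 35.65. H1 summed to 31.5 ± 2.77 FPKM in mESC, 33.2 ± 2.11 in D5-LSKCD201-, 50.4 ± 1.27 in D5-LSKCD201+, 138 ± 44.8 in FL and 78.7 ± 6.05 in BM. H2B summed to 18.9 ± 2.28, 47.0 ± 1.35, 39.8 ± 3.09, 261 ± 25.0 and 78.8 ± 9.20 in that order. H3 lay between 15.8 and 22.5 in 4 groups and at 40.4 ± 14.3 in FL, and H4 between 32.5 and 41.0 in 4 groups and at 75.3 ± 35.8 in FL. In H2B the 3 FL libraries lay above every other library and the 3 mESC libraries below every other, whereas in H3 and H4 the first FL library fell within the range of other groups.

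**Figure D1:**
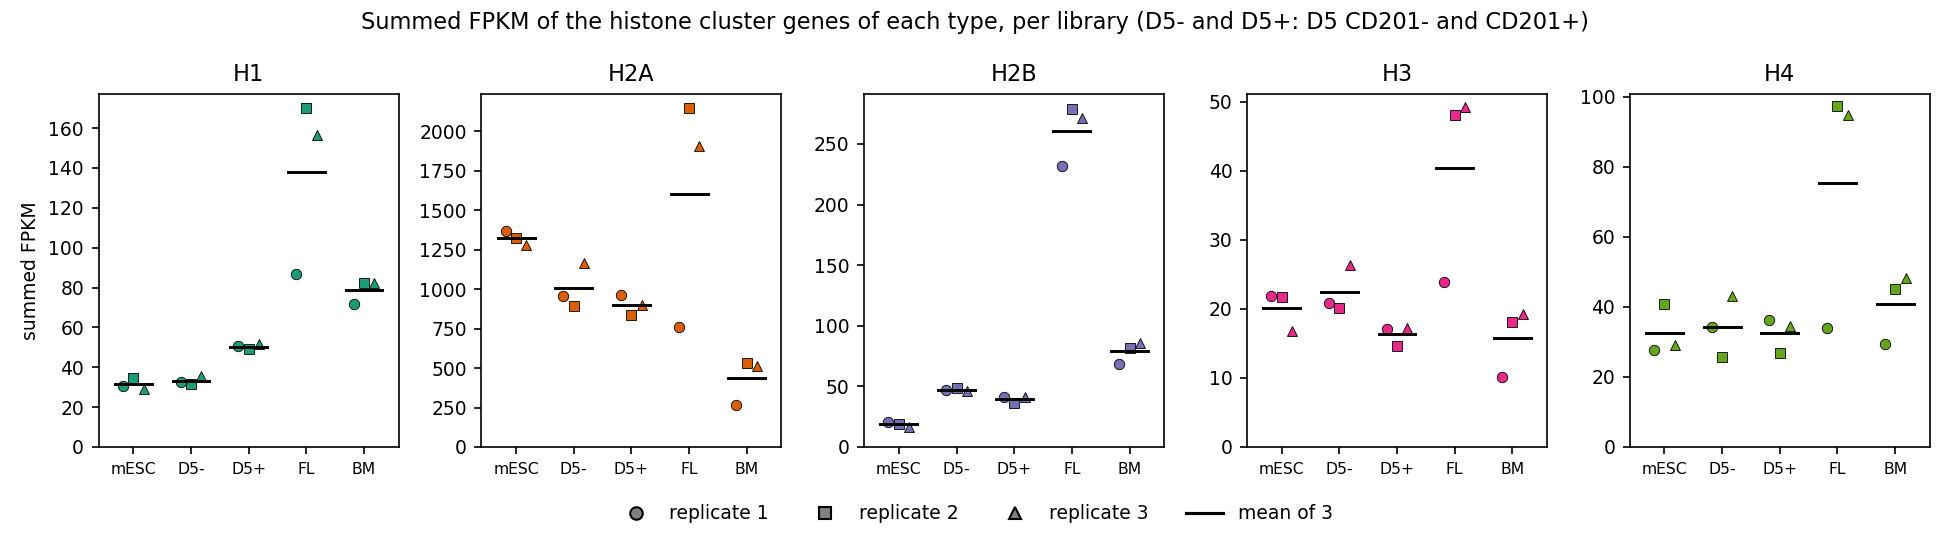
Summed FPKM (linear axis from 0) of the histone cluster genes of each type in the 15 sorted-cell libraries, with symbols for the replicates and a line for the mean of 3. H2A stands near 1325 FPKM in mESC and 437 in BM, while the means of H1 and H2B are lowest in mESC. The first FL library lies below the other FL libraries in all 5 types.

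The leading members of each type are named here by their mean over all libraries of a table, which pools groups of different level. Hist1h2ap and Hist1h2aj, which is annotated as a pseudogene, were the highest H2A members of the sorted-cell table with means over the 15 libraries of 345 and 264.5 FPKM. By group, Hist1h2aj was above Hist1h2ap in mESC (393 against 348) and in both D5 groups, and below it in FL and BM. Hist1h1c (35.7) and Hist1h1b (17.6) led H1, although in mESC Hist1h1b stood at 18.6 and Hist1h1c at 3.33. In the same table Hist1h2bc (51.4) and Hist1h2bg (17.1) led H2B, Hist1h3d (3.03) and Hist2h3c2 (2.97) had the highest H3 means, and Hist1h4d (28.9) and Hist1h4i (6.33) led H4. In the coculture table the leaders were Hist1h2ap (854) and Hist1h2ai (245) for H2A, Hist1h1c (4.99) and Hist1h1a (1.32) for H1, Hist1h2bc (4.87) and Hist3h2ba (1.87) for H2B, Hist1h3b (2.47) and Hist1h3c (1.70) for H3, and Hist1h4i (3.77) and Hist1h4d (1.79) for H4. The H3 order also differed by group: Hist1h3i (3.09) was highest in mESC, Hist2h3c2 in D5-LSKCD201- (3.28) and D5-LSKCD201+ (3.04), Hist1h3d (6.64) in FL and Hist1h3e (4.03) in BM, where Hist1h3d stood at 1.70 and Hist2h3c2 at 0.609. No H3 member exceeded 8.04 FPKM in any library.

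Many copies of the same type share long identical stretches, and 12 of the 20 H2A members shared more than 50% of theirs. Among stretches of 100 bases, the median H2A member shared 64.5% exactly with another annotated gene, against 0.396% in H1, 34.7% in H2B, 49.8% in H3 and 19.0% in H4. Of Hist1h2ap, 92.2% were shared with Hist1h2ao, of Hist1h2aj 91.7% with Hist1h2ai, and of Hist2h2aa2 all were shared. Hist1h1c shared 5.07% and Hist2h2be none. How reads that match several copies were assigned is not given in the sources used here, so the level of a shared copy is uncertain. Whether a sum over the type is less so was not tested. The 2 tables also divided the H2A signal differently: Hist1h2ah and Hist1h2af stood at 92.3 to 167 and 27.8 to 47.2 FPKM in the mESC and D5 libraries, but at 0 to 3.41 and 0 to 0.51 in the coculture libraries, which were cultured from the same kind of stem cell. The tables were normalized separately, and no value was tested between them.

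H2A and H2B genes often lie head to head. From the annotation, 13 such pairs had starts 173 to 302 bases apart, among them those of the annotated pseudogenes Hist1h2aj and Hist3h2bb-ps. Pairs near 0 were counted too, such as Hist3h2a at 0.208 and Hist3h2bb-ps at 0.0847 FPKM in mESC. The H2A gene was the higher of the pair in 12 of 13 pairs in mESC and in each D5 group, in 11 in FL and in 10 in BM. The gap could be wide: Hist1h2ap averaged 348 FPKM in mESC and its neighbour Hist1h2br 0.567. Hist1h2ac and Hist1h2bc, whose shared region is printed above, went the other way in all 5 groups, with 2.57 against 4.74 FPKM in mESC, 2.38 against 22.9 in D5-LSKCD201+ and 16.1 against 167 in FL. Short transcripts were not low in every type. Among members with annotated transcripts of up to 500 bases, the median in mESC was 52.5 FPKM over 12 H2A members, but 0.432 over 8 of H2B, 2.17 over 3 of H3 and 0.595 over 6 of H4.

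**Figure D2:**
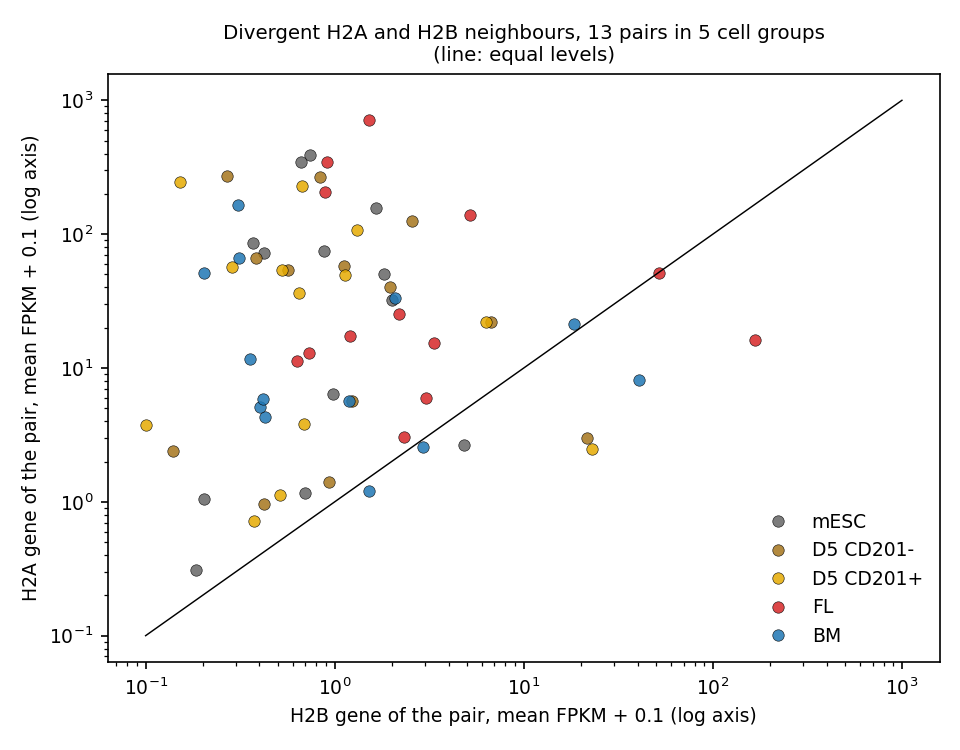
Mean FPKM plus 0.1 of the H2A gene (vertical log axis) against that of its H2B neighbour (horizontal log axis) for 13 head-to-head pairs, each drawn once in each of 5 groups, with a line of equal levels. Most points lie above the line, and the Hist1h2ac and Hist1h2bc pair lies below it in all 5 groups.

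Comparisons of the members were taken from limma fits over every gene that averaged 0.5 FPKM or more in the compared groups, on log2(FPKM + 1), a scale that understates changes of low genes. A gene was called with an adjusted p under 0.05 (Benjamini-Hochberg over all genes tested) and a log2 fold change of at least 1 in size. The first question, what OP9 coculture changes against gelatin, concerned 43 tested members. Of these, 2 were higher and 1 lower with OP9 (6.98% called), against 2.62% of all genes tested, 2.11% higher and 0.509% lower. Without the fold threshold the share was 6.98% of members and 6.88% of all genes (4.61% higher and 2.27% lower). Hist1h2bc, an H2B gene at chr13:23684199-23692908 on the plus strand, stood at 6.34, 5.43 and 8.83 FPKM with OP9 and at 2.14, 2.96 and 3.53 on gelatin, with no overlap. Its log2 fold change was 1.01 ± 0.20 (SE, n = 3 per group, limma adjusted p = 0.0255). Hist1h2ad was at 0.73, 1.11 and 3.13 with OP9 and listed at 0 in the 3 gelatin libraries (limma adjusted p = 0.0441). It reached the expression filter through the OP9 libraries alone, so no weight is placed on this call. With no filter on low values 1 member was called higher and 1 lower (1.31% and 0.307% of all genes). With a filter at a mean of 1 FPKM the counts were the same (1.99% and 0.552% of all genes). Hist1h2an was at 0, 1.37 and 0 with OP9 and at 3.68, 4.66 and 7.71 on gelatin, a log2 fold change of -2.20 ± 0.38 (limma adjusted p = 0.0155). Its mean with OP9 was 0.457 FPKM, so it reached the filter through the gelatin libraries alone. No weight is placed on this call either. Hist1h2ad and Hist1h2an, both H2A genes, were called in opposite directions, and 63.6% and 83.3% of their stretches are shared with other genes.

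The bulk of the family did not separate the cultures. H2A summed to 1430, 1429 and 1173 FPKM with OP9 and to 1186, 1171 and 762.5 on gelatin, which overlapped. The other 47 members gave 56.6, 50.2 and 54.4 against 74.9, 49.9 and 29.2 FPKM. Hist1h1c, at 7.87, 5.47 and 4.62 against 5.36, 3.45 and 3.15, had a log2 fold change of 0.49 ± 0.22 (adjusted p = 0.244). The median over the 43 members was -0.02 on the log2 scale, and 0.01 over all genes. None of the 3 calls held in each fit that left out 1 library: the number called ranged from 0, without the second gelatin library, to 2. Of all genes, 1.61% to 3.45% were called in these fits. With the closest OP9 libraries averaged, an alternative added after seeing the data, only Hist1h2an was called, against 2.06% of all genes. As above, no weight is placed on the Hist1h2an call. With quantile normalization 1 member was called higher and 1 lower (1.70% and 0.641% of all genes).

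**Figure D3:**
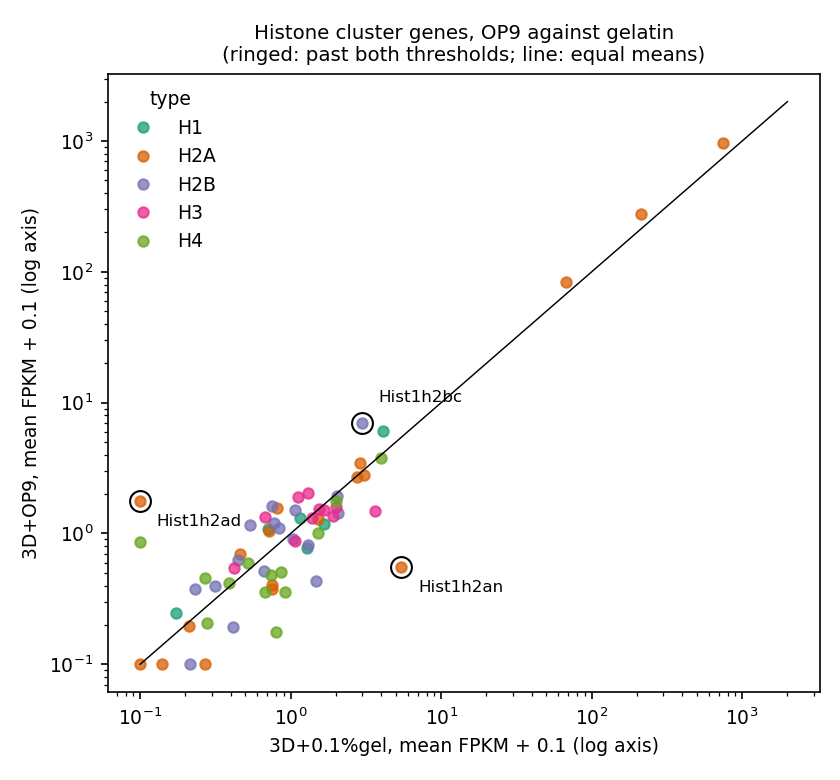
Mean FPKM plus 0.1 of the 65 members with values in 3D+OP9 (vertical log axis) and 3D+0.1%gel (horizontal log axis), coloured by histone type, with a line of equal means. The 3 ringed members were past both thresholds, and the 3 highest points, all H2A, lie just above the line.

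From mESC to the D5 cells a small set of members was called higher. The share called in either direction was near or below that of all genes. No member was called lower on the log2(FPKM + 1) scale, whereas with a pseudocount of 0.1 FPKM D5-LSKCD201+ gave 7 calls upward and 6 downward (13.5% and 11.5%, against 23.7% and 22.6% of all genes). In D5-LSKCD201+ against mESC, 6 of 52 members tested were called (11.5%), all higher, against 37.6% of all genes (19.5% higher and 18.1% lower). In D5-LSKCD201- against mESC, 7 of 52 were called (13.5%), all higher, against 14.3% of all genes (10.9% higher and 3.48% lower). The comparisons share the mESC libraries. Both sets held Hist1h1c, Hist1h2bc, Hist1h2bg, Hist2h2aa1, Hist2h2aa2 and Hist3h2a, and that of D5-LSKCD201- also Hist3h2ba. No H3 or H4 member was among them. With quantile normalization the LSKCD201+ comparison gave 6 members higher and 1 lower, 11.5% and 1.92% against 18.6% and 19.4% of all genes.

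Hist1h1c (chr13:23738808-23740367, plus strand), which encodes the linker histone H1.2, was higher in D5-LSKCD201- than in mESC and higher again in D5-LSKCD201+. It stood at 3.06, 4.01 and 2.92 FPKM in mESC, at 12.6, 12.6 and 13.5 in D5-LSKCD201- and at 29.2, 29.9 and 27.0 in D5-LSKCD201+. The 3 groups did not overlap. In the same order of groups, the pluripotency markers summed to 1822 to 1888, 928.5 to 951 and 9.61 to 10.9 FPKM. Listed RNAs without poly(A) tails summed to 116 to 216.5, 293 to 460 and 466 to 648.5. The part of either in the Hist1h1c values was not tested. The log2 fold change was 1.69 ± 0.12 (adjusted p = 2.43e-05) for D5-LSKCD201- and 2.79 ± 0.10 (adjusted p = 8.16e-09) for D5-LSKCD201+ against mESC. Hist1h2bc was at 5.29, 4.49 and 4.44 in mESC, at 21.3, 25.0 and 18.02 in D5-LSKCD201- and at 24.9, 21.3 and 22.6 in D5-LSKCD201+. Its log2 fold changes against mESC were 1.96 ± 0.13 (adjusted p = 2.04e-05) and 2.06 ± 0.08 (adjusted p = 2.03e-08), and the D5 groups overlapped.

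Hist1h2bg, an H2B gene, stood at 2.18, 1.87 and 1.66 FPKM in mESC, at 6.35, 6.95 and 6.62 in D5-LSKCD201- and at 6.12, 5.49 and 7.14 in D5-LSKCD201+. Hist3h2a, the lone H2A gene on chromosome 11, went from 0.347, 0.107 and 0.170 in mESC to 2.38, 1.84 and 2.66 in D5-LSKCD201- cells, and to 4.05, 3.08 and 3.82 in their CD201+ counterparts. Hist2h2aa1, an H2A gene on chromosome 3, went from 0.370, 1.88 and 0.963 to 5.33, 3.46 and 5.40 and to 12.2, 7.92 and 10.1. For these 3 genes both D5 groups lay above every mESC library, as 40.7% of all genes tested did for D5-LSKCD201+ and 36.1% for D5-LSKCD201-. Against mESC, the changes in D5-LSKCD201+ were 1.32, 1.94 and 2.47 on the log2 scale, and those of Hist2h2aa2, a near-identical copy of Hist2h2aa1, and of Hist3h2ba in D5-LSKCD201- were 1.32 and 1.09. Hist3h2a averaged 0.208 FPKM in mESC and reached the expression filter through the D5 libraries alone. No weight is placed on its calls against mESC.

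The called members came from all 3 classes of transcript end. In D5-LSKCD201+ against mESC, 3 of 17 tested members with an extension past the stem-loop were called, 2 of 17 that end near it and 1 of 18 without one. The abundant H2A genes were lower by less than the fold threshold. Hist1h2aj went from 395, 409 and 376 FPKM in mESC to 260, 273 and 289 (D5-LSKCD201-) and to 256, 247 and 229 (D5-LSKCD201+). Hist1h2ap went from 368, 343 and 334 to 256, 245 and 297 and to 249, 217 and 226. With the adjusted p as the lone criterion, 9 members were higher and 21 lower than in mESC (17.3% and 40.4%, against 40.3% and 45.2% of all genes). The median of the 18 H2A members tested there was -0.48 on the log2 scale and that of the 5 H1 members -0.18, beside -0.07 for all genes.

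Between the D5 populations, Hist1h1c was the only member called of 52 (1.92%), against 24.7% of all genes tested (10.8% higher and 13.9% lower). It was 2.23-fold higher by means in D5-LSKCD201+, with a log2 fold change of 1.10 ± 0.07 (adjusted p = 9.25e-06). Without the fold threshold 5 members were higher and 14 lower, against 28.7% and 39.6% of all genes. Those higher were Hist1h1c, Hist1h1e, Hist2h2aa1, Hist2h2aa2 and Hist3h2a. Those lower included 6 of the 11 H3 members tested. Hist3h2ba stood at 3.09, 2.96 and 5.35 in D5-LSKCD201+ and at 7.67, 7.22 and 8.13 in D5-LSKCD201-, with no overlap and a log2 fold change of -0.89 ± 0.19, short of the threshold. The second D5-LSKCD201- library stood apart from the others, and without it the number called stayed at 1, against 25% of all genes.

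**Figure D4:**
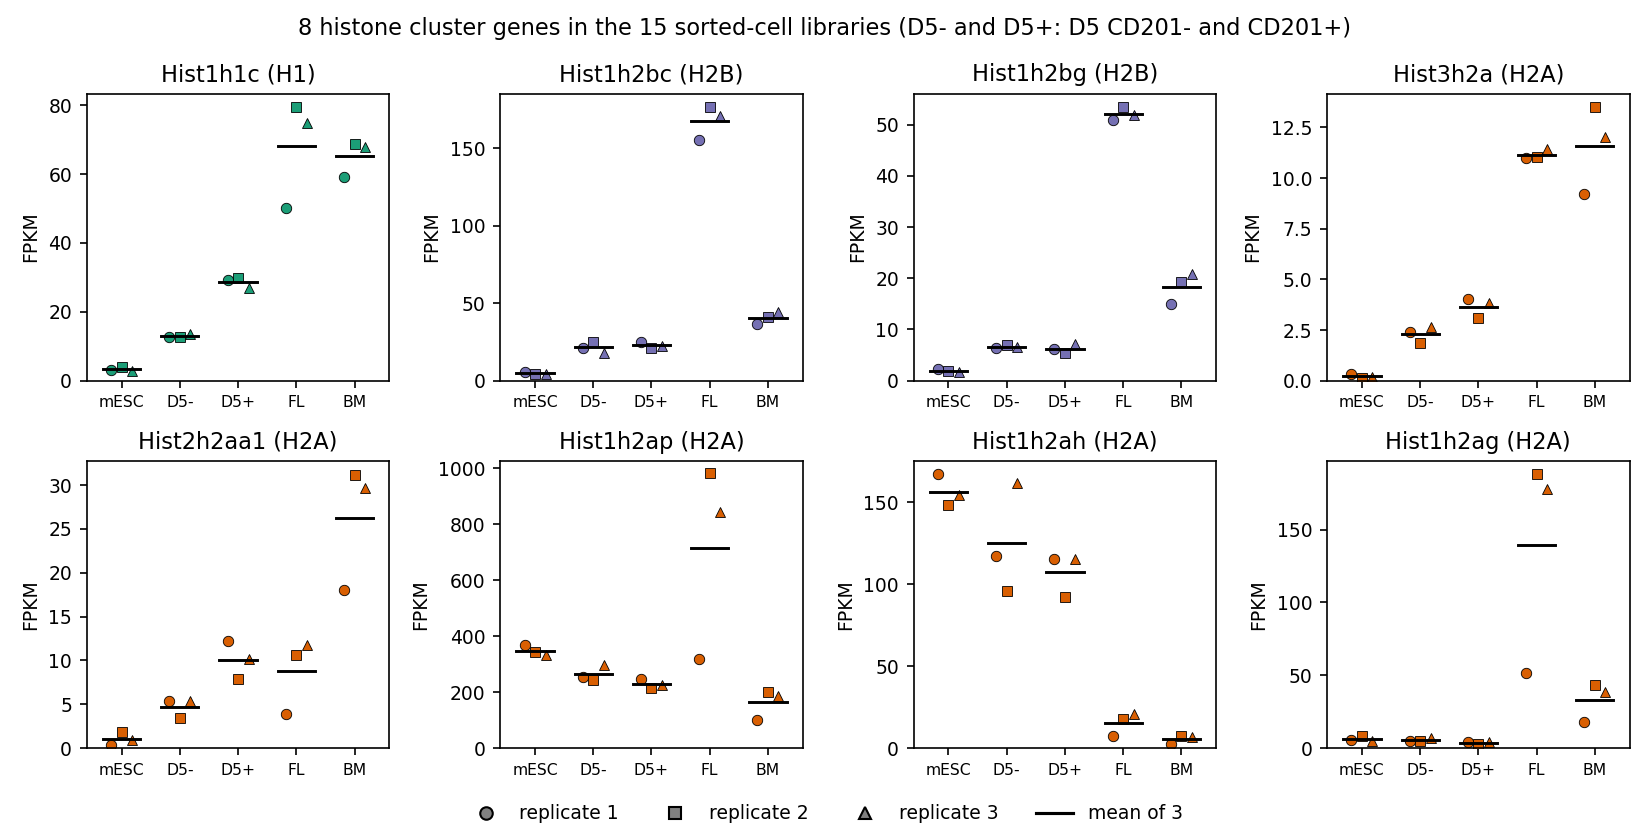
FPKM (linear axes from 0) of 8 members in the 15 sorted-cell libraries, with symbols for the replicates and a line for the mean of 3. Hist1h1c, Hist1h2bc, Hist1h2bg and Hist3h2a are lowest in mESC and higher in FL and BM than in either D5 group, Hist1h2ah is high in mESC and D5 and low in FL and BM, and Hist1h2ag is the reverse.

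By group means the summed member level was highest in FL, although the first FL library, at 1137 FPKM, lay below the 3 mESC libraries (1373 to 1473). Against D5-LSKCD201+, 27 members were higher and 6 lower in FL of 61 tested (54.1% called), against 34.7% of all genes tested. By direction, 44.3% of members and 19.6% of all genes were higher, and 9.84% and 15.1% were lower. Without the fold threshold 73.8% of members and 72.1% of all genes were called, 62.3% and 42.0% higher and 11.5% and 30.1% lower. The erythroid markers summed to 22700 to 46510 FPKM in FL and to 44.4 to 70.6 in D5-LSKCD201+, with 8 of 10 higher, and their part in the member values was not tested. By type, 4 of 5 H1, 8 of 16 H2B, 4 of 12 H3 and 4 of 10 H4 members were higher and none lower, while 7 of 18 H2A members were higher and all 6 that were lower were H2A. The median log2 fold change over the members was 0.95, beside 0.16 over all genes.

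Hist1h2ag (chr13:22042460-22042944, minus strand) led the rise, with 51.8, 188 and 178 FPKM in FL, against 4.43, 2.67 and 4.06 in the D5-LSKCD201+ libraries. This was a log2 fold change of 4.70 ± 0.49 (adjusted p = 1.23e-04). Hist1h2bg stood at 50.9, 53.5 and 52.0 in FL, and Hist1h2bc at 155, 177 and 170.5. Their log2 fold changes were 2.88 ± 0.10 (adjusted p = 5.27e-07) and 2.82 ± 0.09 (adjusted p = 3.86e-07). Unlike Hist1h2ag, these H2B genes were even across the 3 FL libraries. Hist1h4i, the second H4 gene by level, was at 12.2, 23.9 and 22.9 in FL and 2.93, 1.79 and 2.28 in D5-LSKCD201+. Hist1h2ac was at 4.58, 22.8 and 20.9 (mean 16.1), against 2.40, 1.75 and 2.98. Hist2h2be was at 4.34, 2.23 and 2.29, against 0.278, 0.187 and 0.353, and Hist1h1c at 50.02, 79.5 and 74.8, with a log2 fold change of 1.19 ± 0.17 (limma adjusted p = 7.05e-04). Hist2h2be reached the expression filter through FL alone, so no weight is placed on its change.

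Of the 6 H2A genes lower in FL, 4 had log2 fold changes between -1.77 and -3.59. Hist1h2af stood at 32.8, 29.0 and 32.4 FPKM in D5-LSKCD201+ and at 0.780, 2.68 and 1.96 in FL, a log2 fold change of -3.59 ± 0.25 (adjusted p = 1.78e-05). Hist1h2ah was at 115, 92.3 and 116 against 7.52, 17.99 and 20.6 in FL, Hist1h2ai at 49.4, 46.3 and 52.2 against 4.07, 18.1 and 16.1, and Hist1h2ad at 60.98, 51.8 and 58.2 against 8.90, 22.6 and 20.0. For these 4 every FL library was below every D5-LSKCD201+ library, as for 32.2% of all genes tested. Hist1h2al, an annotated pseudogene at 51.2 Mb far from the rest of the Hist1 genes, was at 0.485, 2.19 and 1.73 in D5-LSKCD201+ and listed at 0 in FL. It reached the expression filter through D5-LSKCD201+ alone, so no weight is placed on its call. Hist1h2ab, at 41.7, 35.6 and 39.96 against 9.24, 27.8 and 22.9, had a log2 fold change of -1.06 ± 0.36 (adjusted p = 0.0342).

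In BM against D5-LSKCD201+, 11 members were higher and 12 lower of 54 tested (42.6% called), against 44.7% of all genes. Higher were 20.4% of members and 27.2% of all genes, and lower 22.2% and 17.5%. Those lower were 8 H2A, 3 H3 and 1 H1 member. Hist1h2ah led with 2.68, 7.23 and 6.65 FPKM in BM, a log2 fold change of -4.14 ± 0.29 (adjusted p = 6.32e-06), followed by Hist1h2af (-4.13), Hist1h2ad (-3.52), Hist1h2ai (-3.14) and Hist1h2ab (-2.88). Those higher were led by Hist1h2ag, at 17.97, 43.7 and 38.5 in BM, with a log2 fold change of 2.79 ± 0.32 (adjusted p = 1.06e-04), Hist2h2aa2 (2.18), Hist2h2be (1.59), Hist3h2a (1.43) and Hist1h2bg (1.41). Hist1h1c was at 59.1, 68.8 and 67.8 FPKM, a log2 fold change of 1.16 ± 0.07 (adjusted p = 3.49e-06). Hist2h2be was 10.3-fold higher by means than in D5-LSKCD201+, although at 2.79, 2.94 and 2.73 FPKM it remained low. Its mean in D5-LSKCD201+ was 0.273 FPKM, so it reached the expression filter through BM alone. No weight is placed on its call or on this ratio. With a pseudocount of 0.1 FPKM the balance turned, with 19 members higher and 15 lower (35.2% and 27.8%, against 32.6% and 19.9% of all genes). The FL and BM comparisons share the D5-LSKCD201+ libraries.

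A further description set the mESC and D5 libraries against those of FL and BM, a division that strain and source share. Over the 58 members with a mean of at least 0.5 FPKM in the 15 libraries, 5 were higher in all 9 mESC and D5 libraries than in any FL or BM library (8.62%, against 13.5% of all genes), and 11 were lower (19.0%, against 21.6%). Neither share was above that of all genes. All 5 of the former were H2A genes: Hist1h2ab, Hist1h2ad, Hist1h2af, Hist1h2ah and Hist1h2ai. Chosen for this pattern, they summed to 406 to 429 FPKM in mESC, 255 to 421 in the D5 groups, 30.5 to 89.2 in FL and 12.3 to 24.6 in BM. The 11 were Hist1h1c, Hist1h2ac, Hist1h2ag, Hist1h2bc, Hist1h2be, Hist1h2bg, Hist1h2bj, Hist1h3e, Hist2h2ac, Hist2h2be and Hist3h2a. Hist1h2ag lay between 2.67 and 8.29 in the mESC and D5 libraries and between 17.97 and 188 in FL and BM. Of its stretches of 100 bases, 68.1% are shared with Hist1h2ao, and its mean in FL was 37.4 times that in D5-LSKCD201+. Differences in sequence between 129/ola copies and the reference genome were not tested.

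FL against BM compared tissue cells of the same strain. Here 23 members were higher and 2 lower in FL of 59 tested (42.4% called), against 19.1% of all genes. By direction, 39.0% of members and 7.78% of all genes were higher, and 3.39% and 11.3% were lower. Without the fold threshold 57.6% of members and 55.1% of all genes were called, with 54.2% and 22.2% higher and 3.39% and 32.9% lower. The median over members was 0.94 on the log2 scale, beside -0.13 over all genes. Higher were 3 of 5 H1, 9 of 17 H2A, 4 of 15 H2B, 5 of 11 H3 and 2 of 11 H4 members.

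Hist1h1b, the gene of linker histone H1.5, led with 23.8, 46.8 and 42.7 FPKM in FL and 4.87, 4.99 and 6.29 in BM, a log2 fold change of 2.55 ± 0.25 (adjusted p = 1.46e-04). Hist1h2aj was at 205, 438 and 392 against 40.1, 76.9 and 80.9, and Hist1h2ap at 319, 982 and 844 against 102, 202 and 187, with log2 fold changes of 2.36 ± 0.36 and 2.03 ± 0.45. Hist1h2bc was 4.12-fold higher by means, with a log2 fold change of 2.02 ± 0.10 (adjusted p = 9.08e-06), and Hist1h4i rose by 1.96 on the log2 scale. The members lower in FL were the H2A pair of chromosome 3, Hist2h2aa1 at 3.94, 10.6 and 11.8 against 18.02, 31.2 and 29.6, and Hist2h2aa2 at 3.45, 9.83 and 10.6 against 16.7, 29.5 and 29.5. Hist1h1c and Hist2h2be did not pass the test, with log2 fold changes of 0.04 ± 0.18 (adjusted p = 0.876) and 0.01 ± 0.21 (adjusted p = 0.975).

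The FL and BM libraries were uneven. The first FL library was lower than the third in 61 of 63 members and summed to 1137 FPKM, against 2740 and 2478. The first BM library was lower than the second in 43 of 50 members and summed to 448, against 758 and 746. The 7SL RNA gene Rn7s2, whose RNA has no poly(A) tail, stood at 125, 421 and 435 FPKM in FL and at 270, 404 and 431 in BM. The erythroid markers summed to 22700, 46510 and 45030 FPKM in FL and to 309 to 400 in BM. The part of these in the member values was not tested. Without the first FL library, 37 members were higher and 5 lower than in D5-LSKCD201+ (20.7% and 15.6% of all genes), and 34 higher and 2 lower than in BM (8.24% and 11.8%). Without the second or the third FL library, 17 and 16 members were higher than in BM and 2 lower in each case, and without the first BM library 17 were higher and 3 lower. Of all genes, 7.47% to 7.66% were higher and 11.2% to 12.0% lower in these 3 fits. Within FL and BM, libraries with the same number deviated together over all genes (r = 0.242, 0.202 and 0.159), and with the number as a block 25 members were higher and 2 lower (7.79% and 11.5% of all genes).

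**Figure D5:**
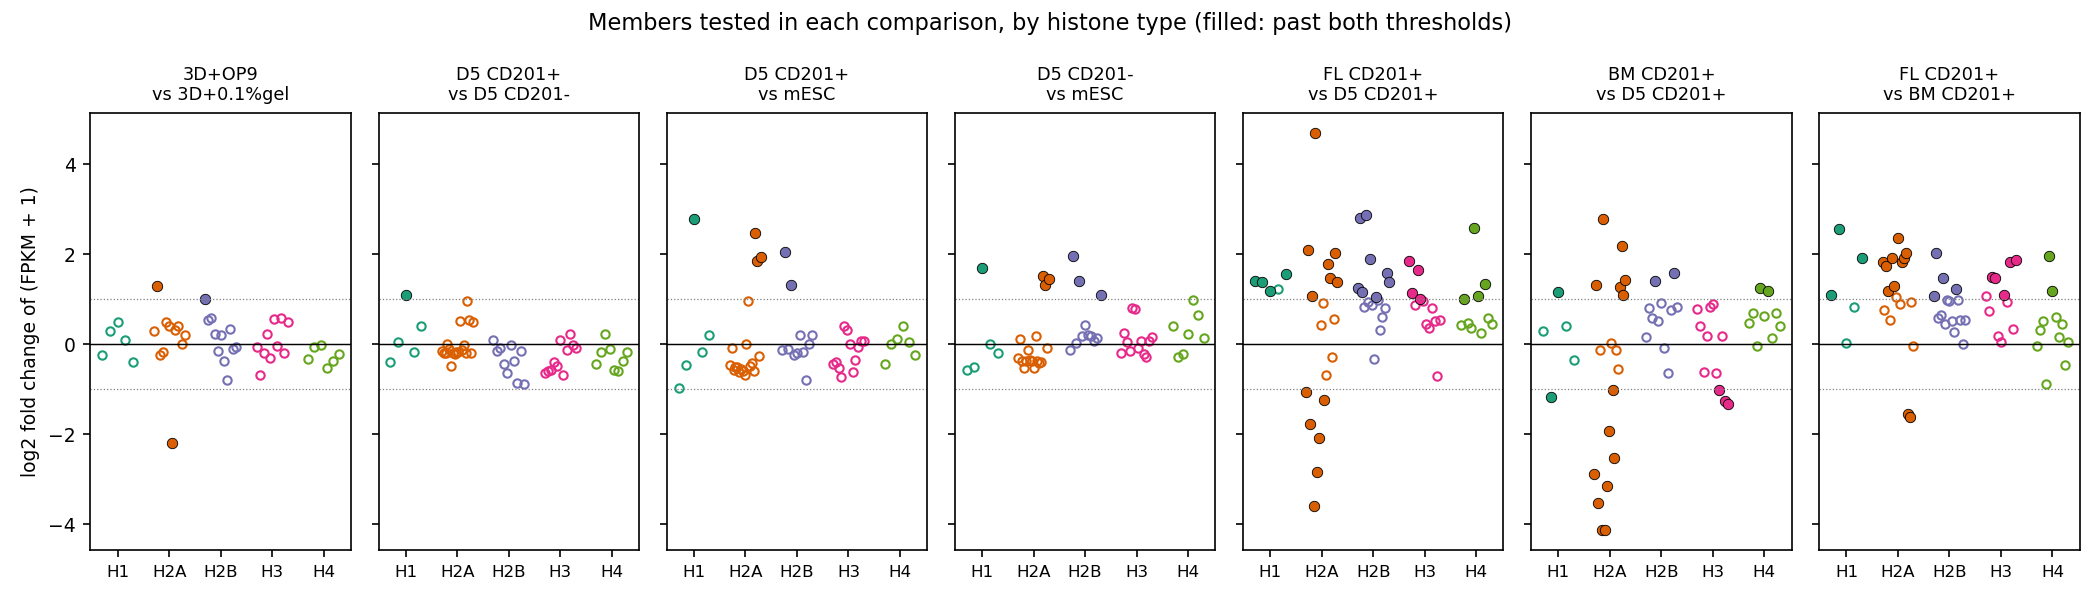
Log2 fold change of FPKM + 1 (vertical axis) of every member tested in each of 7 comparisons, by histone type, with filled points for members past both thresholds and dotted lines at the fold threshold. Calls are few in the OP9 comparison and between the D5 populations, H2A spreads to both sides in FL and BM against D5-LSKCD201+, and nearly all calls in FL against BM are higher.

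Genes that accompany histone synthesis were counted in the same fits. Of 30 S phase genes, 20 were higher in FL than in BM and none lower, against 7.78% and 11.3% of all genes, led by Ccne1 (log2 fold change 3.98), Ccna2 (3.47), Rrm2 (3.01) and E2f2 (2.18). In BM against D5-LSKCD201+ 14 were lower and none higher (17.5% and 27.2% of all genes), and in FL against D5-LSKCD201+ 6 were higher and none lower (19.6% and 15.1%). In D5-LSKCD201+ against mESC 11 were lower, among them Ccne1 (-4.26), beside 18.1% of all genes. Against D5-LSKCD201- 4 were lower, beside 13.9% of all genes, with none higher in either comparison. In D5-LSKCD201- against mESC 2 were lower (3.48% of all genes), and with OP9 against gelatin none was called by limma, with 5 at an unadjusted p under 0.05. These comparisons share libraries as the member comparisons do.

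Of 18 factors of histone mRNA, 4 were lower in D5-LSKCD201+ than in mESC, where 18.1% of all genes were lower: Zfp473 (-1.999), which binds the U7 snRNP, Pou2f1 (-1.27), which binds the octamer, Srrt (-1.15) and Casp8ap2 (-1.05). Zfp473 and Pou2f1 were also lower than in D5-LSKCD201-, as 13.9% of all genes were, with log2 fold changes of -1.42 and -1.10. In FL against D5-LSKCD201+ 2 were higher and 1 lower, beside 19.6% and 15.1% of all genes. In BM 1 was higher and 2 lower, beside 27.2% and 17.5%, and in the other 3 comparisons none was called. At an unadjusted p under 0.05, limma gave 1 of the 18 for OP9 against gelatin, 8 for D5-LSKCD201- against mESC and 13 for FL against BM. Slbp, the gene of the stem-loop binding protein, changed by less than the fold threshold, with log2 fold changes of -0.63 ± 0.03 in D5-LSKCD201+ against mESC and 0.68 ± 0.10 in FL against BM. Of 17 histone chaperones, 6 were lower in D5-LSKCD201+ than in mESC (18.1% of all genes were), led by Hat1 (-2.07) and Nasp (-1.92). In FL against BM 5 were higher (7.78% of all genes were), led by Nasp (2.34) and Asf1b (2.10). In D5-LSKCD201+ against D5-LSKCD201-, Hat1 (-1.44) and Nasp (-1.31) were lower, as 13.9% of all genes were. In FL against D5-LSKCD201+ 3 were higher, and in BM 3 higher and 4 lower. These counts stand beside 19.6% of all genes higher in FL, and 27.2% higher and 17.5% lower in BM. None was called for OP9 against gelatin or D5-LSKCD201- against mESC, where 2 and 12 had an unadjusted p under 0.05 by limma.

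Replacement histones are made throughout the cell cycle, most of them from polyadenylated mRNA, and the gene H2afx also gives stem-loop mRNA without a tail. Of the 13 listed, 11 were tested in D5-LSKCD201+ against mESC, where H1f0, the H1 variant of non-dividing cells, rose by 2.92 on the log2 scale and H1fx changed by -1.44. H1f0 also rose by 1.98 in D5-LSKCD201- against mESC. In FL against D5-LSKCD201+, 5 of 11 were higher and 1 lower, beside 19.6% and 15.1% of all genes, and the largest changes were those of H2afy (3.51), H2afy2 (-2.63), H1fx (2.29) and H3f3a (1.24). In BM against D5-LSKCD201+, 5 of 11 were higher and 3 lower, beside 27.2% and 17.5% of all genes, with the largest for H2afy (3.94), H2afy2 (-2.30), H1fx (1.99) and Cenpa (-1.57). In FL against BM, Cenpa (1.95) and H2afz (1.12) were higher and H3f3b (-1.19) was lower, beside 7.78% and 11.3% of all genes. With OP9 against gelatin none of 12 was called by limma, and between the D5 populations none of 11, with 2 and 8 at an unadjusted p under 0.05. Of 23 RNAs without poly(A) tails, at most 5 reached the expression filter in any comparison of the sorted cells. In D5-LSKCD201+ against mESC, Rn7s2 (1.87) and Rn7s1 (1.85) were higher and Snora73b (-1.83) was lower. In D5-LSKCD201- against mESC Rn7s1 (1.22), Rn7s2 (1.22) and Rn7sk (1.11) were higher. Rpph1 (1.85) was higher in FL and Rn7sk (1.36) in BM than in D5-LSKCD201+, and none of 5 was called in FL against BM, also at an unadjusted p under 0.05. Between the D5 populations none of 4 was called by limma, with 3 at an unadjusted p under 0.05. Among the non-members whose log2 level followed the summed member level most closely over the 15 libraries were Psmg3 (r = 0.945), Uqcc2 (0.942), Rexo2 (0.938) and Mrpl46 (0.938), a description over libraries that share their groups.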

How the data were processed

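Total RNA was made into libraries with a poly(A)-selecting kit (VAHTS mRNA-seq v2) and read in pairs of 150 bases on an Illumina HiSeq instrument. The submitters' processing notes name HISAT2 2.0.5, StringTie 1.3.3, Cuffdiff 1.3.0, GRCm38 and also mm9 with no role. The authors deposited FPKM per gene in 2 tables, which were tested separately. Values were analysed with limma 3.58.1 (trend, R 4.3.3) on log2(FPKM + 1) over every gene that averaged 0.5 FPKM or more in the compared groups. Genes were called at a Benjamini-Hochberg adjusted p under 0.05 and a log2 fold change of at least 1 in size, in 7 comparisons of 3 against 3 libraries. The text names the 5 members with the largest change in each direction (all where up to 10 were called), the highest 2 of each type and up to 4 genes of each list, those most correlated with a summed member level, and a few members chosen after their values were seen. Members and lists were chosen with earlier results of these data known. On simulated FPKM for FL against BM, 89% of changes of 1.5 and 98% of 2.5 (log2) were recovered. These changes were planted only in genes averaging at least 4 FPKM, with independent noise for each gene. The median member stood lower, at 2.95 FPKM in FL and 1.34 in BM, so recovery at that level was not tested. Transcripts and positions came from GENCODE M21, promoters from RefSeq (GRCm38.p6). Replicate numbers paired the libraries by correlation in FL against BM alone.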

Additional observations from a re-analysis of the deposited data

How the results depend on the processing

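Depth could not be read from FPKM, so members below about 1 FPKM carry an unknown counting error, and shared copies are uncertain. Without the fold threshold, 19 members differed between the D5 populations, 30 between D5-LSKCD201+ and mESC, 18 between D5-LSKCD201- and mESC and 39 between BM and D5-LSKCD201+ (36.5%, 57.7%, 34.6% and 72.2%, against 68.3%, 85.5%, 54.6% and 83.4% of all genes). The other 3 comparisons gave 3 for OP9 against gelatin, 45 for FL against D5-LSKCD201+ and 34 for FL against BM (6.98%, 73.8% and 57.6%, against 6.88%, 72.1% and 55.1% of all genes). With a pseudocount of 0.1 FPKM the first 2 of these comparisons gave 5 (2 higher and 3 lower, beside 14.3% and 18.3% of all genes) and 13 (7 higher and 6 lower). The higher calls went from 11 to 19 in BM and from 27 to 36 in FL against D5-LSKCD201+, from 23 to 31 in FL against BM and from 7 to 10 in D5-LSKCD201- against mESC (32.6%, 25.1%, 10.1% and 15.6% of all genes), and the lower calls in BM from 12 to 15. With the closest libraries averaged, an alternative chosen after seeing the data, 1 member was called for OP9 against gelatin and 2 between the D5 populations (2.06% and 24.8% of all genes). When 1 library was left out, the numbers called were 0 to 2 for OP9 against gelatin, 1 to 2 between the D5 populations, 6 to 8 for each D5 group against mESC, 28 to 42 for FL and 20 to 23 for BM against D5-LSKCD201+, and 18 to 36 for FL against BM. Of all genes, 1.61% to 3.45% were called in these fits for OP9 against gelatin and 24.3% to 25% between the D5 populations. Against mESC they were 37.2% to 37.6% for D5-LSKCD201+ and 14% to 14.8% for D5-LSKCD201-. Against D5-LSKCD201+ they were 34.1% to 36.4% for FL and 44.1% to 45% for BM, and for FL against BM 18.6% to 20%. The cause of these ranges was not tested.

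The block on replicate number gave 3, 1, 6, 7, 34, 23 and 27 members called in the 7 comparisons, in the order of the shares just given. Without it the counts were 3, 1, 6, 7, 33, 23 and 25. With the block, 2.92%, 24.7%, 37.6%, 14.4%, 34.7%, 44.7% and 19.3% of all genes were called in that order. The pairing held in FL against BM alone. Values close to 0 changed sign. Hist1h2bc between the D5 populations ranged from -0.013 to 0.21 when 1 library was left out. Hist1h1c in FL against BM ranged from -0.088 to 0.24 in this way and was -0.032 with the closest libraries averaged. Hist2h2be in FL against BM ranged from -0.23 to 0.13 and was -0.00255 with a pseudocount of 0.1. Of the named values under settings that kept all libraries, 448 kept their direction and side of the threshold, 5 lost the call, 1 gained it and 2 reversed. With a library left out, 292 kept them, 12 lost the call and 6 reversed. The first tally includes the adjusted p alone, under which the 47 called of the 52 named pairs stay called by definition. Most named pairs were also chosen for large changes. Quantile normalization moved the median over all genes from 0.23 to 0.02 and over the members from 0.35 to 0.03 in BM against D5-LSKCD201+, and the median over the members from 0.06 to -0.21 in D5-LSKCD201- against mESC. Rescaling FPKM to TPM, within each library, raised the summed level of every type by construction, since the TPM total exceeds every library's FPKM total. It moved the order of the close H4 means. In mESC, D5-LSKCD201- and D5-LSKCD201+ these were 32.6, 34.3 and 32.5 FPKM, and 62.0, 62.9 and 63.3 TPM.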

Other observations

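Apart from H2A, the summed level of the histone cluster genes over the 15 sorted-cell libraries was followed most closely by Fcgr3 (r = 0.979), Afp (0.974), Trbc2 (0.969, as Pearson's r of log2 values), Clec4a2 (0.968) and Slfn3 (0.967), given as a description over libraries that share their groups.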
